A study of Caenorhabditis elegans with 24 samples.

Results

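The 9 genes described here take sterols from uptake to a steroid hormone receptor in Caenorhabditis elegans: ncr-1, ncr-2, daf-36, dhs-16, hsd-1, hsd-2, daf-9, daf-12 and din-1. They were chosen by their known place in sterol transport and dafachronic acid signalling, with earlier results of these data known. Each was found once by name among the 46778 genes of the deposited tables. Of the 9 genes, 7 passed the filter on low counts and were tested, while dhs-16 and hsd-1 did not.

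C. elegans cannot make sterols and takes cholesterol from its food. Dietary sterol is moved between compartments by Niemann-Pick type C1-like proteins, converted by a chain of oxidoreductases and finally oxidised by the cytochrome P450 DAF-9 into dafachronic acids. These bind the nuclear receptor DAF-12. With the hormone, DAF-12 favours reproductive growth, and without it DAF-12 pairs with the co-repressor DIN-1 and favours the dauer larva, a stress-resistant stage. The pathway is also known for its part in adult lifespan and fat metabolism.

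RNA of whole young adults grown at 20 °C was sequenced after poly(A) selection, with 6 biological replicates of each of 4 genotypes, to compare the transcriptomes of animals that differ in protein aggregation. All animals, controls included, carried 40Q::YFP, a stretch of 40 glutamines fused to a fluorescent protein. This transgene was expressed in body wall muscle from the promoter of unc-54. Strain AM141 (40Q) carried no further mutation, RVM10 carried the unc-1 allele vlt10, RVM293 carried the nhr-1 allele vlt16, and RVM294 carried both of these alleles, so each genotype was a single strain. unc-1 encodes a stomatin-like protein and is expressed in neurons and muscle cells. Its vlt10 allele came from a chemical mutagenesis screen, whereas nhr-1 encodes a nuclear receptor and its vlt16 allele was made by genome editing. Around vlt10 the paper found many mutations close together on the left arm of chromosome X. Mutations linked to vlt10 in RVM10 or RVM294 cannot be told apart from the allele itself. Of the genes described here, ncr-1, hsd-2, daf-9 and daf-12 lie on chromosome X, as unc-1 does. RVM10 is called unc-1(vlt10) below, RVM293 nhr-1(vlt16), and RVM294 the double mutant.

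Gene counts summed to between 19098458 and 30467364 reads per library. Double mutants were sequenced more deeply (26646628 to 30467364) than any other library. The targeted genes followed the labels: unc-1 was at 8.13 ± 1.28 CPM in 40Q, 1.10 ± 0.267 in unc-1(vlt10) animals, 6.37 ± 0.856 in nhr-1(vlt16) and 0.903 ± 0.0791 in double mutants, and nhr-1 at 28.1 ± 1.91, 25.6 ± 2.70, 14.9 ± 1.82 and 14.3 ± 1.82 CPM (SD, n = 6 libraries each). CPM, or counts per 1e+06, scale reads to the library total on genes after TMM normalization. A difference was called at an adjusted p below 0.05, from the quasi-likelihood test of edgeR and Benjamini-Hochberg (BH) adjustment across all 14865 genes that passed the filter, and a fold change above 2 is given as a stricter threshold. unc-1 was also called lower in nhr-1(vlt16) than in 40Q (log2 fold change -0.35 ± 0.11 SE, edgeR BH-adjusted p = 0.0109), although that label names no unc-1 allele. RNA came from pooled whole animals, so fewer cells of a type and less RNA per cell cannot be told apart. The library names of 40Q begin with another letter than those of the mutants, and whatever that marks cannot be told apart from the genotype.

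The 9 genes were compared with each other per length, in FPKM. In 40Q, din-1 (16.7 ± 0.796 FPKM), daf-36 (13.6 ± 1.16), ncr-1 (9.29 ± 0.896) and daf-12 (5.78 ± 0.558) were the abundant ones. Lower levels were measured for hsd-2 (1.02 ± 0.210 FPKM), daf-9 (0.983 ± 0.126) and ncr-2 (0.632 ± 0.0578), and the levels of hsd-2 and daf-9 did not differ beyond their spread. The transcript of dhs-16 was at 0.123 ± 0.0620 FPKM, and hsd-1 had reads in 1 of the 6 libraries. In unc-1(vlt10), ncr-2 (1.08 FPKM) stood above daf-9 (0.830) and hsd-2 (0.716), whereas daf-9 led these genes in nhr-1(vlt16) (1.36) and in double mutants (1.48). The place of din-1 depends on the length used. The deposited FPKM of din-1 imply 4874 bases, whereas its merged exons in the Ensembl annotation cover 9785 bases, and on that length din-1 would be at 8.33 FPKM in 40Q, below daf-36 and ncr-1.

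**Figure D1:**
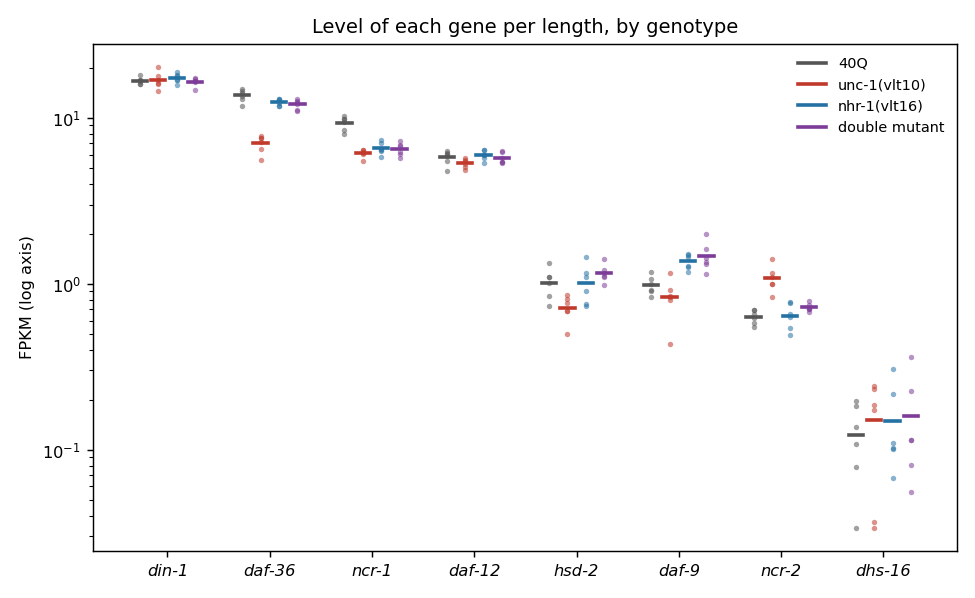
Level per length of 8 genes in FPKM, on a log axis, with 1 point per library and a line at the mean of each genotype (n = 6 libraries). hsd-1 is left out because most libraries are at 0. In 40Q the means run from 16.7 FPKM for din-1 to 0.123 FPKM for dhs-16. The libraries of daf-36 and ncr-2 in unc-1(vlt10) and of ncr-1 in 40Q stand apart from the other genotypes.

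In unc-1(vlt10) against 40Q, ncr-1, daf-36, hsd-2 and daf-12 fell and ncr-2 rose, so that 5 of the 7 tested genes were called, while 47.8% of all tested genes were called in this comparison. Only daf-36 also passed the fold change of 2, which 5.95% of all genes passed. In 3 of the 7 genes the 6 unc-1(vlt10) libraries did not overlap the 6 of 40Q, against 24.7% of all genes. Their median log2 fold change was -0.32, beside 0.02 over all genes tested, and the median size without sign was 0.56 beside 0.20.

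In nhr-1(vlt16) against 40Q, 2 of 7 genes were called (42.5% of all genes): ncr-1 fell and daf-9 rose. The libraries of 1 gene, ncr-1, did not overlap (18.1% of all genes). Double mutants against 40Q gave 3 called genes of 7 (32.2% of all genes), with ncr-1 and daf-36 lower and daf-9 higher, and again no overlap for ncr-1 alone (11.7% of all genes). Neither comparison had a member past the fold change of 2.

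Against unc-1(vlt10), double mutants were higher in daf-36, hsd-2 and daf-9 and lower in ncr-2. These are 4 of 7 genes called, where 43.3% of all genes were, and 3 of 7 without overlap, where 24.6% were. The comparison of unc-1(vlt10) with nhr-1(vlt16) called 5 of 7 genes (38.7% of all genes), 3 of them without overlap (23.1% of all genes). Double mutants and nhr-1(vlt16) differed in 0 of 7 genes by edgeR at the adjusted threshold, with 0 at an unadjusted p below 0.05, 0 by DESeq2 and 0 by limma, and no gene without overlap. In this pair 19% of all genes were called and 8.79% had no overlap. The comparisons that share 40Q or another genotype are not independent of each other.

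**Figure D2:**
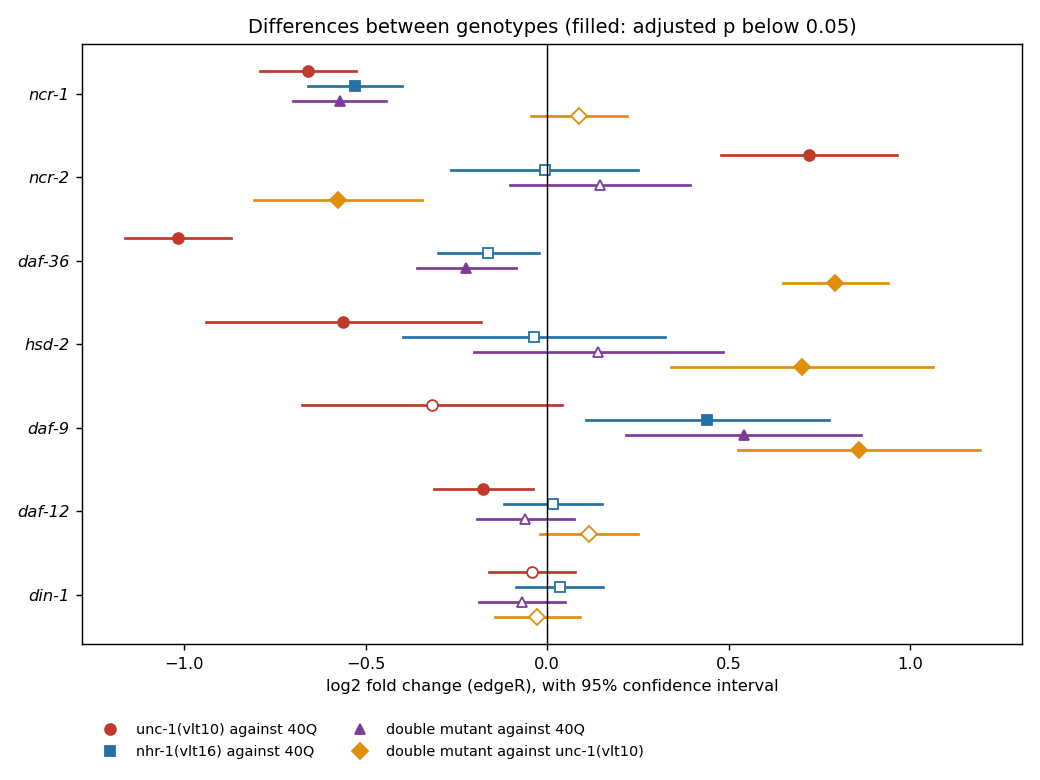
Log2 fold change (edgeR) of the 7 tested genes in 4 comparisons between genotypes, with 95% confidence intervals as lines and filled symbols for an adjusted p below 0.05. ncr-1 lies between -0.66 and -0.53 in all 3 mutants against 40Q, whereas ncr-2, daf-36 and hsd-2 leave 0 in unc-1(vlt10) and move the other way in double mutants against unc-1(vlt10).

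In unc-1(vlt10) the sterol transporters moved in opposite directions, and in the other mutants only ncr-1 was called. ncr-1 and ncr-2 encode the paralogous Niemann-Pick type C1-like membrane proteins of the worm, whose loss together makes larvae form dauers without need. ncr-1 (WBGene00003561, WBcel235 chromosome X, 4472244 to 4488857, minus strand) has 18 merged exon blocks. It ranged from 38.6 to 48.8 CPM in 40Q (median 46.7), from 25.3 to 30.1 in unc-1(vlt10) (median 28.5), from 28.2 to 34.8 in nhr-1(vlt16) (median 30.4) and from 26.8 to 34.2 in double mutants (median 30.2). Every library of the 3 mutants lay below every 40Q library, and the 3 mutants overlapped one another.

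Against 40Q, ncr-1 fell 1.58-fold in unc-1(vlt10) (log2 fold change -0.66 ± 0.064 SE, edgeR BH-adjusted p = 4.18e-10), 1.44-fold in nhr-1(vlt16) (-0.53 ± 0.064, edgeR BH-adjusted p = 1.33e-07) and 1.49-fold in double mutants (-0.57 ± 0.063, edgeR BH-adjusted p = 2.42e-08). The double mutants were not called different from either single mutant. Between double mutants and unc-1(vlt10) the log2 difference was 0.09 (95% confidence interval -0.04 to 0.22), and between double mutants and nhr-1(vlt16) it was -0.04 (-0.17 to 0.09). The interaction, which is the effect of unc-1(vlt10) in the presence of nhr-1(vlt16) minus its effect in 40Q alone, was 0.62 ± 0.091 for ncr-1 on the log2 scale (edgeR BH-adjusted p = 1.73e-06). The interaction was called in 4 of the 7 genes and in 47.7% of all genes. Each interaction includes 40Q, whose library names begin with another letter than those of all mutants. For ncr-1, lower in every mutant, whatever that letter marks cannot be told apart from the genotypes.

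The summed level of 6 listed body wall muscle genes was lower in the single mutants than in 40Q, while the genes themselves differed in direction. They summed to 3836 to 4464 CPM in 40Q, from 3112 to 3402 in unc-1(vlt10), from 3123 to 3407 in nhr-1(vlt16) and 3072 to 3865 in double mutants. The double mutant range overlapped that of 40Q. The largest part of the sum was unc-54, whose promoter also drives 40Q::YFP. Its mean was 2516 CPM in 40Q, 1777 in unc-1(vlt10), 1928 in nhr-1(vlt16) and 1967 in double mutants. Of these 6 genes, 3 were called lower and 3 higher in unc-1(vlt10), with a median log2 fold change of 0.00 beside -0.66 for ncr-1. In nhr-1(vlt16) 5 were called lower and in double mutants 3, and no change passed the fold change of 2. Of all genes, 47.8%, 42.5% and 32.2% were called in these comparisons with 40Q, and 22.6%, 22% and 17.3% were lower. The part of muscle RNA in the ncr-1 difference was not tested.

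ncr-2 (WBGene00003562, chromosome III, 8258345 to 8265805, plus strand, 19 exon blocks) rose in unc-1(vlt10). Its lowest, median and highest libraries were at 2.25, 2.57 and 2.79 CPM in 40Q and at 3.24, 4.05 and 5.48 CPM in unc-1(vlt10). They were at 1.94, 2.54 and 3.05 CPM in nhr-1(vlt16) and at 2.69, 2.77 and 2.97 CPM in double mutants. All 6 unc-1(vlt10) libraries were higher than every library of the other 3 genotypes, which overlapped one another.

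Thus ncr-2 was 1.65-fold higher in unc-1(vlt10) than in 40Q (log2 fold change 0.72 ± 0.12 SE, edgeR BH-adjusted p = 7.96e-06). Against unc-1(vlt10), double mutants were 1.49-fold lower (-0.58 ± 0.11, edgeR BH-adjusted p = 0.000104). The difference from 40Q was -0.01 in nhr-1(vlt16) (95% confidence interval -0.26 to 0.25) and 0.15 in double mutants (-0.10 to 0.39), neither of them called. The interaction of ncr-2 was -0.57 ± 0.17 (edgeR BH-adjusted p = 0.00671). Behind these levels stood 44 to 147 reads per library, against 543 to 1053 for ncr-1.

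The share of ncr-2 in the summed FPKM of both transporters, a measure chosen after the values were seen and given without a test, was 6.41 ± 0.847% (SD, n = 6 libraries) in 40Q and 15 ± 2.51% in unc-1(vlt10). The share was 8.93 ± 1.54% in nhr-1(vlt16) and 10.1 ± 0.997% in double mutants. The libraries of unc-1(vlt10), from 11.4% to 18.6%, did not overlap those of 40Q, from 5.498% to 7.56%, or of nhr-1(vlt16), from 6.26% to 10.8%, and they barely overlapped the double mutants, from 9.06% to 11.5%. ncr-1 remained the more abundant transporter in every library.

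**Figure D3:**
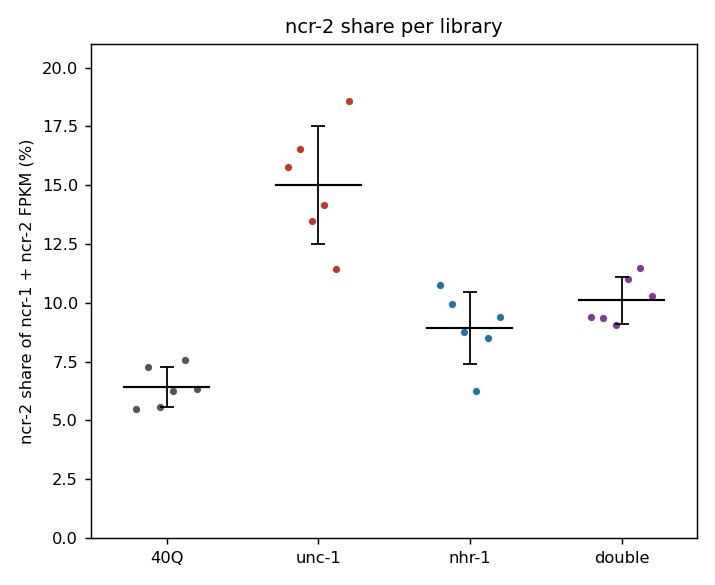
Share of ncr-2 in the summed FPKM of ncr-1 and ncr-2, in percent, with 1 point per library, a line at the mean and bars for the SD of each genotype (n = 6 libraries). The mean is 6.41% in 40Q, 15% in unc-1(vlt10), 8.93% in nhr-1(vlt16) and 10.1% in double mutants.

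Among the enzyme genes, daf-36 was the one past the fold change of 2. It encodes the Rieske-type oxygenase that opens the pathway by turning cholesterol into its 7-dehydro form, and it is known as a gene of the intestine. daf-36 (WBGene00007536, chromosome V, 10223513 to 10225710, minus strand, 6 exon blocks) ranged from 17.4 to 21.8 CPM in 40Q (median 20.2) and from 7.78 to 10.97 CPM in unc-1(vlt10) (median 10.3). In nhr-1(vlt16) it ranged from 16.8 to 18.6 CPM (median 18.2), and in double mutants from 15.4 to 18.8 CPM (median 17.3). All unc-1(vlt10) libraries were below every other library, and the other 3 genotypes overlapped.

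daf-36 fell 2.02-fold in unc-1(vlt10) against 40Q (log2 fold change -1.02 ± 0.072 SE, edgeR BH-adjusted p = 2.45e-13), just past the fold change of 2. The double mutants stood 1.73-fold above unc-1(vlt10) (0.79 ± 0.071, edgeR BH-adjusted p = 5.58e-11) and 1.17-fold below 40Q (-0.22 ± 0.067, edgeR BH-adjusted p = 0.0106). The call of double mutants against 40Q was lost with limma on FPKM values, with differences of -0.17 and -0.16 (adjusted p = 0.0592 and 0.0537 at pseudocounts of 0.1 and 1, and 0.0953 at 0.1 without a filter). In nhr-1(vlt16) the difference from 40Q was -0.16 ± 0.068 and missed the threshold (edgeR BH-adjusted p = 0.0542). It passed when any of 19 of the 24 libraries was left out, those other than 40Q replicates 4 and 5, nhr-1(vlt16) replicates 2 and 6 and double mutant replicate 5, with values from -0.22 to -0.16 over all 24 omissions, and also with a filter of at least 1 CPM in 6 libraries (edgeR BH-adjusted p = 0.0488) or a fit of these 2 genotypes alone (edgeR BH-adjusted p = 0.0354). The interaction of daf-36 was 0.96 ± 0.098 (edgeR BH-adjusted p = 2.31e-09), the largest of the 7 genes in size.

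Markers of the intestine were also lower in unc-1(vlt10). The 7 measured genes of the list summed to 2261 to 2584 CPM in 40Q, from 1917 to 2081 in unc-1(vlt10), from 2138 to 2290 in nhr-1(vlt16) and 2166 to 2636 in double mutants, so that unc-1(vlt10) lay below the other genotypes in every library. In unc-1(vlt10), 5 of the 7 were called lower than in 40Q and 0 higher (22.6% of all genes were lower), with a median log2 fold change of -0.36, beside -1.02 for daf-36. The largest of these was pept-1, the peptide transporter, which fell 4.33-fold (-2.12 ± 0.071, edgeR BH-adjusted p = 4.03e-21), and ges-1 and asp-1 were not called. In nhr-1(vlt16) 5 of the 7 were called lower as well, also with a median of -0.36, and in double mutants 5 were lower and 1 higher, with a median of -0.21. Of all genes, 22% were lower in nhr-1(vlt16) and 17.3% in double mutants. The part of intestinal RNA in the daf-36 difference was not tested. A stretch of 9 bases of its exons overlaps an exon of C12D8.20 on the other strand, and the strand setting of the counting is not given in the sources used here.

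Few reads fell on dhs-16 and hsd-1. dhs-16 encodes a dehydrogenase of the 3-keto step (WBGene00000979, chromosome V, 5983745 to 5985509, plus strand, 3 exon blocks, of which 74 bases overlap C10F3.7 on the other strand). It had 1 to 6 reads per library in 40Q, from 1 to 8 in unc-1(vlt10), from 2 to 8 in nhr-1(vlt16) and 2 to 13 in double mutants, or 0.164 ± 0.0832, 0.193 ± 0.119, 0.196 ± 0.117 and 0.208 ± 0.155 CPM (SD, n = 6 libraries each). These ranges overlap, and no difference was detectable at this depth. Without the filter, edgeR gave BH-adjusted p-values from 0.730 to 1 for dhs-16 over the 6 pairs of genotypes and the interaction.

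hsd-1 encodes a 3-beta-hydroxysteroid dehydrogenase known from the XXX neuroendocrine cells (WBGene00012394, chromosome I, 13720125 to 13724453, minus strand). It had no read in 21 of the 24 libraries, 3 reads in 1 library of 40Q, 1 read in 1 library of unc-1(vlt10) and 1 read in 1 of nhr-1(vlt16). The count of 0 over the 6 double mutant libraries allows a level of up to 0.0177 CPM, for counting error only, and no comparison was made. The 4 markers of the XXX cells, sdf-9, eak-3, eak-4 and eak-6, were as scarce: they summed to at most 0.273 CPM in any library, eak-3 had no read in any of the 24, and none passed the filter.

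hsd-2, a paralogous hydroxysteroid dehydrogenase gene (WBGene00022498, chromosome X, 5005240 to 5007037, plus strand, 7 exon blocks), was measurable at 12 to 47 reads per library. Its lowest, median and highest libraries were at 0.874, 1.26 and 1.57 CPM in 40Q, at 0.580, 0.826 and 0.978 in unc-1(vlt10), at 0.854, 1.17 and 1.67 in nhr-1(vlt16) and at 1.16, 1.31 and 1.59 in double mutants. The unc-1(vlt10) libraries overlapped those of 40Q and nhr-1(vlt16) at their upper end and lay below every double mutant library.

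hsd-2 fell 1.48-fold in unc-1(vlt10) against 40Q (log2 fold change -0.56 ± 0.19 SE, edgeR BH-adjusted p = 0.0129) and rose 1.63-fold in double mutants against unc-1(vlt10) (0.70 ± 0.18, edgeR BH-adjusted p = 0.00159). Against 40Q it was not called in nhr-1(vlt16) (-0.04, 95% confidence interval -0.40 to 0.32) or double mutants (0.14, -0.20 to 0.48). Between unc-1(vlt10) and nhr-1(vlt16) the difference of -0.53 (edgeR BH-adjusted p = 0.0241) was lost without unc-1(vlt10) replicate 3 (-0.44), nhr-1(vlt16) replicate 1 (-0.40) or nhr-1(vlt16) replicate 2 (-0.48). It was also lost without the filter on low counts (-0.52, edgeR BH-adjusted p = 0.0653) and with limma on unfiltered FPKM values (-0.43, adjusted p = 0.0654). The interaction of hsd-2 was 0.74 ± 0.25 (edgeR BH-adjusted p = 0.0157).

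daf-9, the cytochrome P450 of the last step, had its lowest mean in unc-1(vlt10) and its highest in double mutants. It is known from XXX cells, the hypodermis and the spermatheca. daf-9 (WBGene00000905, chromosome X, 6196927 to 6200823, plus strand, 12 exon blocks) was at 1.65, 1.91 and 2.36 CPM (lowest, median and highest library) in 40Q and at 0.820, 1.59 and 2.25 CPM in unc-1(vlt10). It was at 2.30, 2.68 and 2.96 CPM in nhr-1(vlt16) and at 2.13, 2.70 and 3.91 CPM in double mutants. From the lowest mean to the highest the order was unc-1(vlt10), 40Q, nhr-1(vlt16), double mutants, with overlap between each pair of neighbours. Apart from the pair unc-1(vlt10) and nhr-1(vlt16), which did not overlap, all pairs of genotypes shared part of their range.

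Compared with 40Q, daf-9 rose 1.36-fold in nhr-1(vlt16) (log2 fold change 0.44 ± 0.16 SE, edgeR BH-adjusted p = 0.0304) and 1.46-fold in double mutants (0.54 ± 0.16, edgeR BH-adjusted p = 0.00904). The difference of -0.32 ± 0.18 in unc-1(vlt10) was not called (edgeR BH-adjusted p = 0.137). Double mutants were 1.82-fold above unc-1(vlt10) (0.86 ± 0.16, edgeR BH-adjusted p = 5.90e-05), and unc-1(vlt10) was 1.69-fold below nhr-1(vlt16) (-0.76 ± 0.17, edgeR BH-adjusted p = 0.000464). The interaction of daf-9 was not called (0.42 ± 0.23, edgeR BH-adjusted p = 0.139).

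With 22 to 118 reads per library, 1 library could change a call of daf-9. The call in nhr-1(vlt16) was lost without any 1 of 8 libraries, 40Q replicates 1, 2, 4 and 5 and nhr-1(vlt16) replicates 3 to 6, with log2 fold changes of 0.38 to 0.43 and adjusted p of up to 0.0916 by edgeR, and with limma on unfiltered FPKM values (0.43, adjusted p = 0.0552). Without unc-1(vlt10) replicate 5, the highest library of its group, the difference of unc-1(vlt10) from 40Q became -0.47 (edgeR BH-adjusted p = 0.0323) and the interaction 0.57 (edgeR BH-adjusted p = 0.0411). Hypodermis and seam markers, summed over 8 genes, overlapped between all genotypes: 192 to 216 CPM in 40Q, from 190 to 212 in unc-1(vlt10), from 200 to 224 in nhr-1(vlt16) and 193 to 215 in double mutants. Of the 7 tested, 3 were called higher and 0 lower in unc-1(vlt10), and 2 higher and 0 lower in nhr-1(vlt16) as well as in double mutants, against 40Q. Of all genes, 25.1%, 20.5% and 14.9% were called higher in these comparisons.

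**Figure D4:**
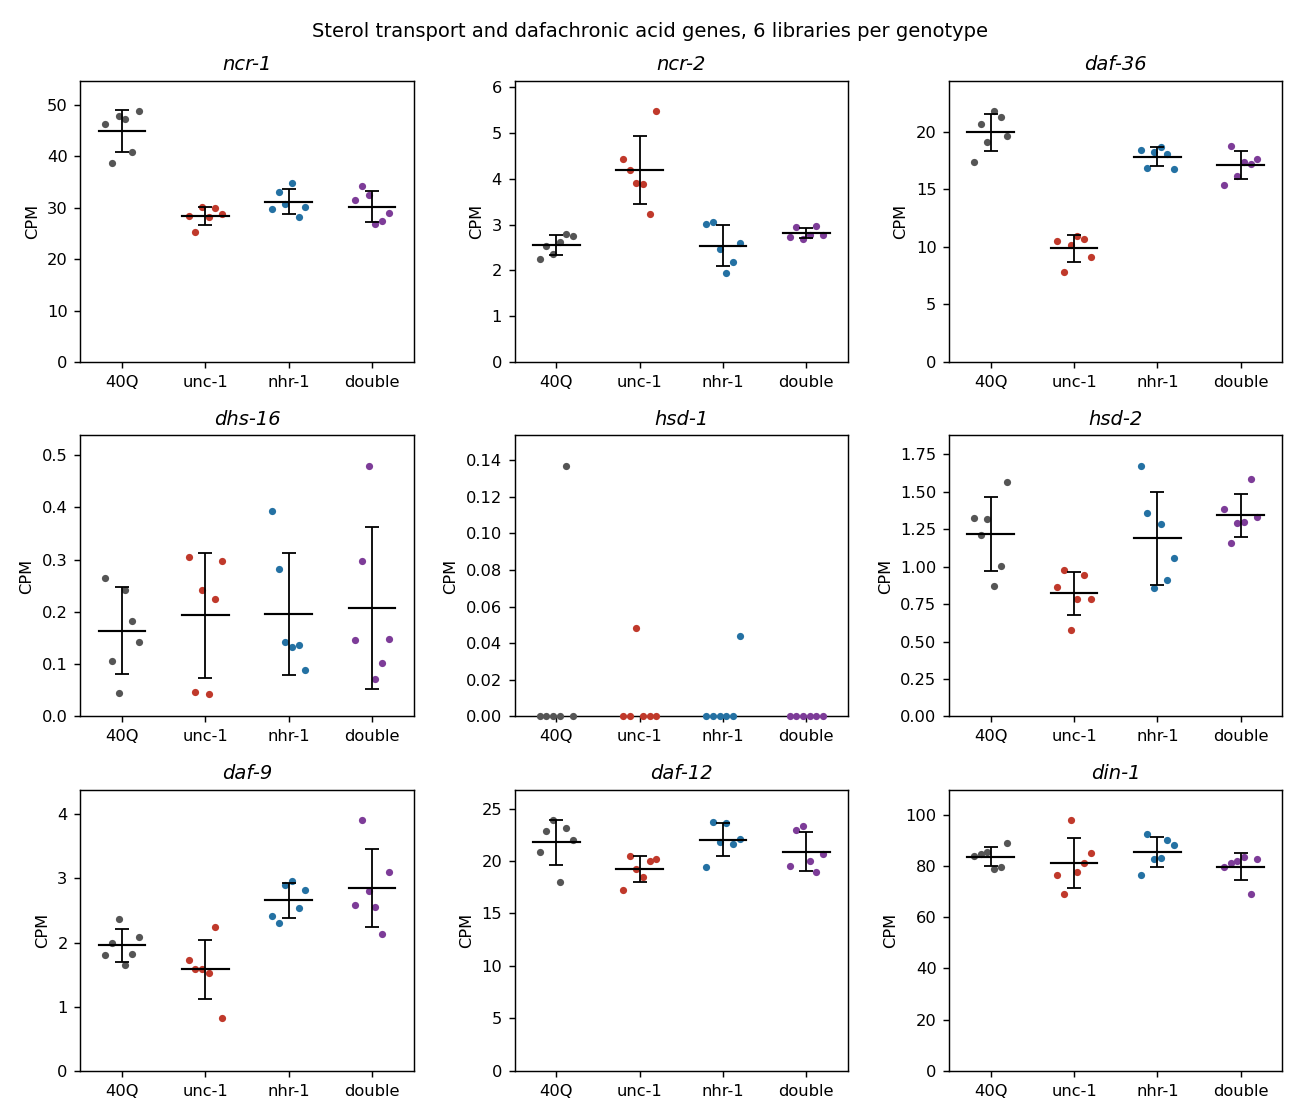
CPM of each of the 9 genes after TMM normalization, with 1 point per library, a line at the mean and bars for the SD of each genotype (n = 6 libraries, no mean or SD drawn for hsd-1). All vertical axes start at 0. The unc-1(vlt10) libraries stand apart for ncr-2 (3.24 to 5.48 CPM) and daf-36 (7.78 to 10.97 CPM), and the 40Q libraries for ncr-1 (38.6 to 48.8 CPM).

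Differences in the receptor and its partner were small. daf-12 encodes the nuclear receptor that binds dafachronic acids (WBGene00000908, chromosome X, 10635908 to 10666875, plus strand, 20 exon blocks and 10 annotated transcripts). Its libraries ran from 17.96 to 23.9 CPM in 40Q (median 22.4), from 17.2 to 20.5 in unc-1(vlt10) (median 19.6), from 19.4 to 23.7 in nhr-1(vlt16) (median 21.96) and from 18.9 to 23.3 in double mutants (median 20.3). All genotypes overlapped.

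The small decrease of daf-12 in unc-1(vlt10) was called against 40Q (log2 fold change -0.18 ± 0.067 SE, edgeR BH-adjusted p = 0.0300) and against nhr-1(vlt16) (-0.19 ± 0.067, edgeR BH-adjusted p = 0.0209). Scaling by total counts alone ended the call against 40Q (-0.12, edgeR BH-adjusted p = 0.126), as did limma on FPKM values and the omission of 40Q replicate 3 (-0.16), 40Q replicate 5 (-0.17) or unc-1(vlt10) replicate 1 (-0.16). Against nhr-1(vlt16), the call was lost without unc-1(vlt10) replicate 1 (-0.16) or 4 (-0.17) or nhr-1(vlt16) replicate 2 (-0.16) or 4 (-0.16), and with limma on FPKM values in all 3 settings (adjusted p = 0.0655, 0.0686 and 0.0968). In nhr-1(vlt16) and double mutants the differences of daf-12 from 40Q were 0.02 (95% confidence interval -0.12 to 0.15) and -0.06 (-0.19 to 0.07).

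din-1 (WBGene00008549, chromosome II, 11614770 to 11633609, minus strand, 22 exon blocks and 7 annotated transcripts) encodes the DAF-12 co-repressor in its short form. Its counts hold all forms together, and antisense non-coding genes share up to 150 bases of its exons. It was at 78.9, 84.1 and 88.9 CPM in 40Q, 69.0, 79.3 and 97.9 in unc-1(vlt10), 76.6, 85.7 and 92.4 in nhr-1(vlt16) and 69.2, 81.5 and 83.6 in double mutants (lowest, median and highest library). The genotypes overlapped throughout. No comparison of din-1 was called, with log2 differences from -0.10 to 0.03. The interval of its difference from 40Q ran from -0.16 to 0.08 in unc-1(vlt10), from -0.09 to 0.15 in nhr-1(vlt16) and from -0.19 to 0.05 in double mutants.

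For the genes with a called difference above 1.4-fold, the 3 most similar patterns were sought by the root mean square difference in centred log2 CPM over the 24 libraries. For ncr-1 these were T19D12.4 (0.091), oac-46 (0.11), an acyltransferase homologue, and unc-54 (0.11), the muscle myosin heavy chain that is also one of the muscle markers. The spread of ncr-1 itself on this scale was 0.28. For daf-36, with a spread of 0.41, they were bcat-1 (0.12), the branched-chain amino acid transaminase, cah-5 (0.12), a carbonic anhydrase, and ZK1193.2 (0.12). The mean of bcat-1 was 236 CPM in 40Q, 121 in unc-1(vlt10), 208 in nhr-1(vlt16) and 202 in double mutants.

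The nearest genes to ncr-2, with a spread of 0.33, were cal-2 (0.17), a calmodulin-like gene, C05C12.4 (0.17) and Y39G10AR.11 (0.17). For the weakly expressed hsd-2 (spread 0.35) and daf-9 (0.43) the nearest patterns were less close. They were tre-4 (0.21), a trehalase, C03F11.4 (0.23) and lin-18 (0.23), a Wnt receptor of the Ryk type, for hsd-2, and C01H6.4 (0.25), ugt-62 (0.25), a glucuronosyltransferase homologue, and F38B6.4 (0.25) for daf-9. The candidates were 11127 genes, or 11128 for hsd-2, and these likenesses are given as a description.

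Around the pathway, 14 other genes of sterol handling and steroid modification were listed, and 13 were tested. In unc-1(vlt10) against 40Q, 2 rose, 5 fell and 6 were not called, with a median log2 fold change of -0.05, where 25.1% of all genes rose and 22.6% fell. mboa-1, a homologue of mammalian sterol O-acyltransferases, which store sterols as esters, was the one past the fold change of 2: it ranged from 0.4998 to 0.793 CPM in 40Q and from 1.31 to 1.93 CPM in unc-1(vlt10), with 11 to 18 and 30 to 46 reads per library. mboa-1 rose 2.58-fold (1.37 ± 0.23 SE, edgeR BH-adjusted p = 8.24e-06) without overlap. In double mutants it was at 0.401 to 1.19 CPM, 2.58-fold below unc-1(vlt10) (-1.37 ± 0.22, edgeR BH-adjusted p = 3.68e-06), also without overlap.

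The genes that fell in unc-1(vlt10) were heh-1, nlt-1, dhs-28, let-767 and art-1, named here after their values were seen. heh-1, an NPC2-like gene whose mammalian counterpart hands sterol to NPC1, fell 1.38-fold (-0.47 ± 0.045, edgeR BH-adjusted p = 2.52e-10), and dhs-28, a peroxisomal hydroxysteroid dehydrogenase homologue, 1.42-fold (-0.51 ± 0.038, edgeR BH-adjusted p = 8.85e-13). For heh-1 and dhs-28 the unc-1(vlt10) libraries were all lower than those of 40Q, whereas those of nlt-1 overlapped. In nhr-1(vlt16) 0 of the 13 genes rose and 6 fell, and in double mutants 0 rose and 7 fell, none of them past the fold change of 2, where 42.5% and 32.2% of all genes were called in either direction. Double mutants against unc-1(vlt10) gave 5 higher and 5 lower genes, where 21.6% of all genes were higher and 21.7% lower.

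**Figure D5:**
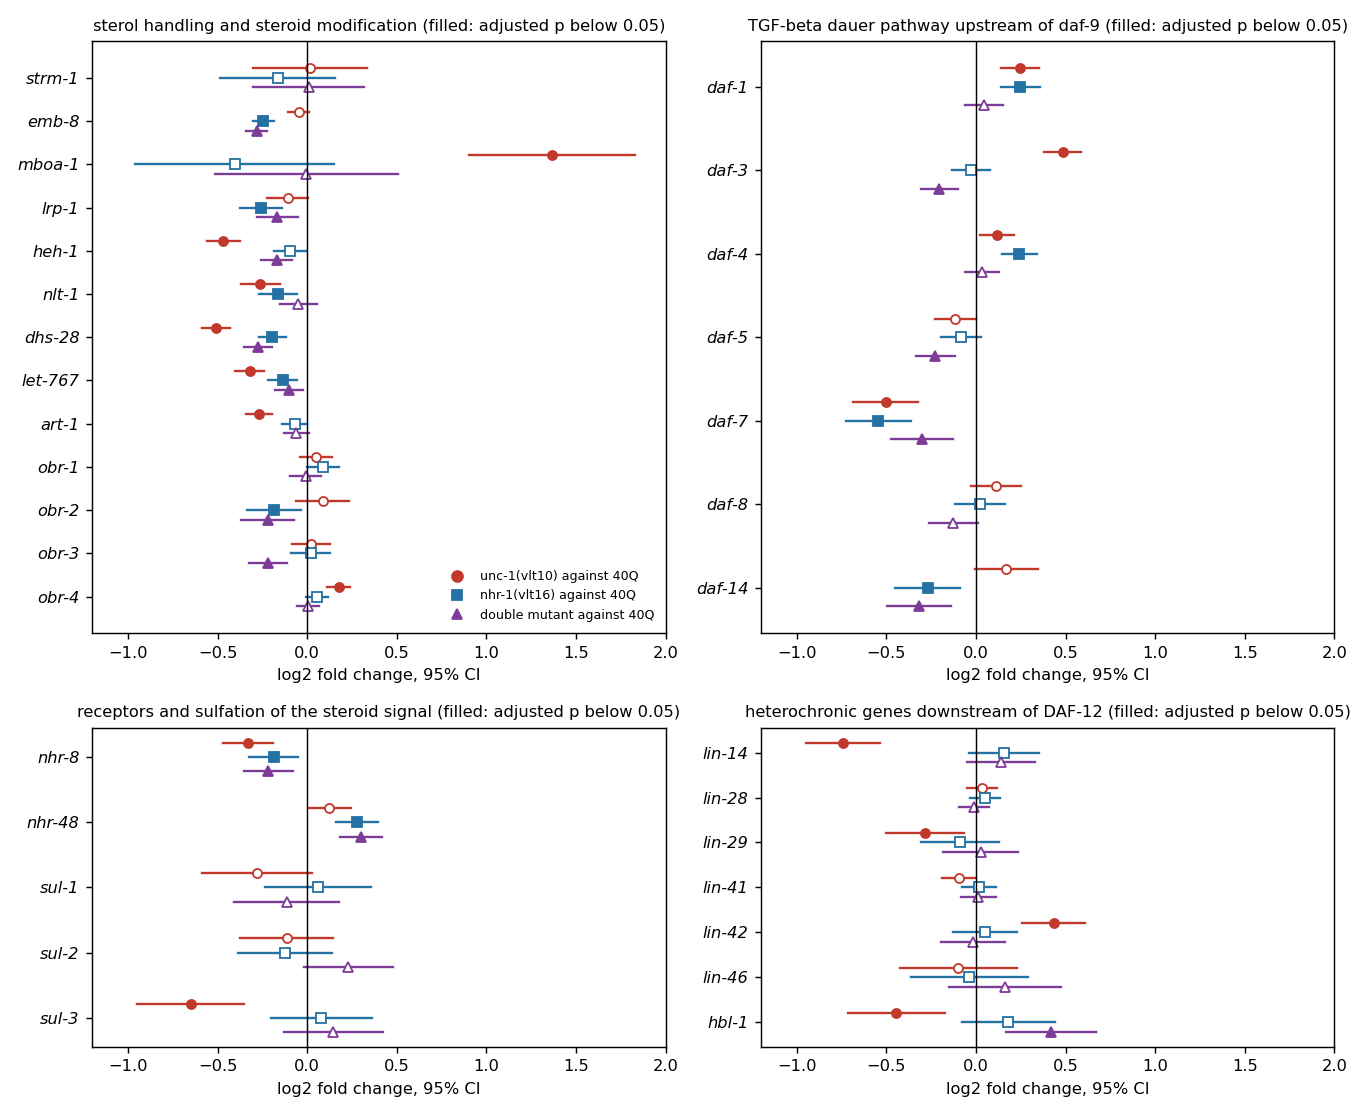
Log2 fold change (edgeR) against 40Q of the tested genes of 4 lists around the pathway, with 95% confidence intervals as lines, 1 colour and symbol per mutant, and filled symbols for an adjusted p below 0.05. mboa-1, at 1.37 in unc-1(vlt10), is the one gene past a log2 difference of 1, and lin-14 (-0.74) and sul-3 (-0.65) have the lowest values.

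Receptors and enzymes of sulfation formed a list of 6 genes, 5 of them tested. ssu-1, the sulfotransferase, had 2 to 16 reads per library and did not pass the filter. In unc-1(vlt10) against 40Q 0 rose and 2 fell: nhr-8, a receptor related to daf-12 that acts in cholesterol balance (-0.33 ± 0.068, edgeR BH-adjusted p = 0.000156), and sul-3, an arylsulfatase homologue (-0.65 ± 0.15, edgeR BH-adjusted p = 0.000463). sul-3 had a mean of 4.75 CPM in 40Q, 3.01 in unc-1(vlt10), 5.02 in nhr-1(vlt16) and 5.26 in double mutants, and its double mutant libraries lay above every unc-1(vlt10) library (0.80 ± 0.14, edgeR BH-adjusted p = 2.53e-05). nhr-8 was also lower in nhr-1(vlt16) (-0.19) and double mutants (-0.22), where nhr-48, another relative of daf-12, was higher (0.28 and 0.30). In nhr-1(vlt16) and in double mutants these were the only 2 of the 5 tested genes that were called against 40Q, where 42.5% and 32.2% of all genes were called. In unc-1(vlt10) against 40Q, 47.8% of all genes were called.

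The TGF-beta branch, which acts upstream of daf-9 in dauer formation, had 7 tested genes. Of these, 3 rose and 1 fell in unc-1(vlt10), 2 rose and 2 fell in nhr-1(vlt16), and 0 rose and 4 fell in double mutants, all against 40Q. Of all genes, 47.8%, 42.5% and 32.2% were called in these comparisons. The ligand gene daf-7 fell in every mutant: from 7.83–10.6 CPM in 40Q to 6.28–7.08 in unc-1(vlt10) (-0.51 ± 0.088, edgeR BH-adjusted p = 1.87e-05), 5.498–7.51 in nhr-1(vlt16) (-0.55 ± 0.089, edgeR BH-adjusted p = 1.37e-05) and 6.496–8.78 in double mutants (-0.30 ± 0.086, edgeR BH-adjusted p = 0.00721). The double mutant libraries overlapped those of 40Q and those of the single mutants did not. daf-3, the co-SMAD gene, rose in unc-1(vlt10) against 40Q (0.48 ± 0.050, edgeR BH-adjusted p = 1.47e-09) and was lower than 40Q in double mutants (-0.21 ± 0.051, edgeR BH-adjusted p = 0.00220).

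Among 7 heterochronic genes, which time development and act with or below DAF-12 in larvae, 1 rose and 3 fell in unc-1(vlt10), and 1 rose in double mutants, against 40Q, where 47.8% and 32.2% of all genes were called. In nhr-1(vlt16) 0 of the 7 were called by edgeR, with 0 at an unadjusted p below 0.05 and 0 called by DESeq2, where 42.5% of all genes were called by edgeR. lin-14, chosen after its values were seen, was at 12.5 ± 1.497 CPM in 40Q and 7.48 ± 1.06 in unc-1(vlt10) (-0.74 ± 0.10, edgeR BH-adjusted p = 3.09e-07), and at 13.97 ± 1.58 and 13.8 ± 1.73 CPM in nhr-1(vlt16) and double mutants (SD, n = 6 libraries each). Its unc-1(vlt10) libraries did not overlap any other genotype. hbl-1, a target of let-7 family microRNAs that DAF-12 controls, fell in unc-1(vlt10) (-0.45 ± 0.13, edgeR BH-adjusted p = 0.00621) and rose in double mutants (0.42 ± 0.12, edgeR BH-adjusted p = 0.00906).

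Some markers of other tissues were also called different between genotypes, as were many of all genes. Summed levels of 8 neuron markers were 469 to 536 CPM in 40Q, from 501 to 520 in unc-1(vlt10), from 434 to 447 in nhr-1(vlt16) and 408 to 458 in double mutants. Of these 8 genes, 1 was called higher and 4 lower in unc-1(vlt10), 0 higher and 4 lower in nhr-1(vlt16), and 0 higher and 5 lower in double mutants, against 40Q. Of all genes, 47.8%, 42.5% and 32.2% were called in these comparisons. The 8 female germline markers summed to 5731 to 7099 CPM over all libraries. In any comparison with 40Q, 0 to 4 of the 8 were called, where 32.2% to 47.8% of all genes were. The 8 sperm markers summed to 29.2 to 36.7 CPM in 40Q, from 32.9 to 37.7 in unc-1(vlt10), from 23.95 to 26.6 in nhr-1(vlt16) and 30.9 to 36.7 in double mutants, so that nhr-1(vlt16) lay below the rest. Of the 7 tested, 4 were called lower in nhr-1(vlt16) than in 40Q and 1 higher, where 22% and 20.5% of all genes were. The part of these shifts in the values above was not tested.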

How the data were processed

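The authors aligned poly(A)-selected reads to WBcel235 with HISAT2 2.0.5 and counted them per gene with HTSeq 0.6.1, per the paper's methods and the submitters' processing notes. They deposited whole-number counts without normalization and FPKM values, whose length and total are not stated. Their 6 tables of DESeq2 1.24.0 fold changes and p-values were not used here.

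Libraries were grouped by their genotype labels. Counts were fitted with edgeR 4.0.16 in R 4.3.3 in 1 model of all 24 libraries (TMM, filterByExpr, quasi-likelihood F-tests, genotype as the only term). Benjamini-Hochberg adjustment covered the 14865 genes that passed the filter. FPKM served for levels between genes. Gene positions came from Ensembl release 115. Library totals were 19098458 to 30467364 reads, and intervals cover counting and replicate error only. Figures were drawn with matplotlib 3.10.9.

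Alternatives were DESeq2 1.42.0, RLE or total-count scaling, other filters, the replicate block, fits of 2 genotypes, limma 3.58.1 on log2(FPKM + 0.1) or log2(FPKM + 1), and each library left out. The 9 genes and the lists of pathway and marker genes were chosen with earlier results of these data known. The text names the 9 genes, unc-1 and nhr-1, genes of the lists past the fold change of 2 or needed for their role, and the 3 genes nearest in pattern to each gene called above 1.4-fold. It also names genes of the lists below the fold change of 2 that were picked after their values were seen, among them heh-1, nlt-1, dhs-28, let-767, art-1 and lin-14. One listed intestine marker, opt-2, was not found by name. Promoter and protein sequences were not analysed here.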

Additional observations from a re-analysis of the deposited data

Results flagged for a closer look

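For 4 of the 7 tested genes the effect of unc-1(vlt10) differed with and without nhr-1(vlt16), by the interaction term of the edgeR fit, where 47.7% of all genes had a called interaction. The log2 interaction was 0.62 for ncr-1, -0.57 for ncr-2, 0.96 for daf-36 and 0.74 for hsd-2. In each of the 4, the double mutants lay closer to nhr-1(vlt16) than the sum of both single differences would place them.

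Of 35 sets of 6 libraries, 1 gene in 1 genotype, 4 held a library far from the other 5 by Dixon's test at the 95% level, where chance gives about 1 set in 20. In 3 of them hsd-1 was at 0 in all other libraries: 40Q replicate 5 with 0.137 CPM, unc-1(vlt10) replicate 3 with 0.0483 CPM and nhr-1(vlt16) replicate 6 with 0.0441 CPM, or 3, 1 and 1 reads. The other was din-1 in double mutant replicate 5, at 69.2 CPM, against 79.6 to 83.6 CPM in the other 5. A single library with reads among libraries at 0 always passes this test. The rate of 1 set in 20 therefore does not apply to the hsd-1 sets.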

How the results depend on the processing

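Over the 49 log2 fold changes and interactions of the 7 tested genes, no call changed direction under any alternative. DESeq2, RLE size factors and the replicate block (-0.16 for the nhr-1(vlt16) difference of daf-36 from 40Q, edgeR BH-adjusted p = 0.0597) moved no call. Filters, total-count scaling, fits of 2 genotypes and limma changed 15 calls in 6 of the 49 results. Replicate numbers did not pair the libraries: deviations of same-numbered libraries correlated at -0.15 to 0.17, and 3 of 24 libraries were closest to their own number. With limma on log2(FPKM + 0.1) without a filter, the number of genes called was 1 in place of 2 for nhr-1(vlt16) against 40Q, 3 in place of 5 for unc-1(vlt10) against nhr-1(vlt16), 4 in place of 5 for unc-1(vlt10) against 40Q and 2 in place of 3 for double mutants against 40Q. Without 1 library, the numbers were 4 to 6 for unc-1(vlt10) against 40Q, 1 to 3 for nhr-1(vlt16) against 40Q, 3 to 5 for unc-1(vlt10) against nhr-1(vlt16), 4 to 5 for the interaction, and 3, 4 and 0 throughout for double mutants against 40Q, unc-1(vlt10) and nhr-1(vlt16). Read counts in place of FPKM, chosen after seeing the data, gave a difference in the ncr-2 share of 7.44 in place of 8.59 points between unc-1(vlt10) and 40Q. The cause of these shifts was not tested. Depth limits hsd-2, daf-9, ncr-2 and, below the filter, dhs-16 and hsd-1.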
